A study of Mus musculus with 11 samples.

Results

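The respiratory chain subunits that are encoded in the nucleus were followed in p53-restored mouse embryonic fibroblasts (MEFs) after knockdown of p53 or of Pint, a long non-coding RNA induced by p53. Members were the probe sets whose only gene symbol on the platform begins with Nduf, Uqcr, Atp5 or Cox4 to Cox8, or is Sdha, Sdhb, Sdhc or Sdhd. This rule took 113 probe sets of 89 genes from the 34760 probe sets of the table. Of these, 111 probe sets of 88 genes had log2 values over 6 on at least 2 arrays of some group, the filter used here, and were tested. Cox7b2, a testis isoform, and 1 of 3 probe sets of Atp5h did not pass.

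All cells were MEFs of C57BL/6 x 129/SvJ background with a removable stop cassette on both p53 alleles (p53 LSL/LSL). In all 4 groups p53 had been switched back on by adenoviral Cre (24 h, MOI 5), and all groups received 150 nM doxorubicin for 12 h, starting 24 h after transfection. The groups were p53 siRNA (3 arrays) against control siRNA (3 arrays), and a pool of antisense oligonucleotides against Pint (Pint ASO, 3 arrays) against a control ASO (2 arrays). No group was left without p53 restoration or without doxorubicin, and the labels do not say whether replicates were separate cultures. Values are log2 intensities per probe set, so a lower RNA level per cell and fewer cells of a kind cannot be told apart.

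The respiratory chain passes electrons from NADH (complex I) and succinate (complex II) through complex III to oxygen at complex IV. Complexes I, III and IV pump protons across the inner mitochondrial membrane, and complex V, the ATP synthase, uses the gradient to make ATP. Most subunits are nuclear genes with promoters of the housekeeping kind, read by NRF1, by GABP of the ETS family and by YY1, while a small set is encoded by mitochondrial DNA and was not analysed here.

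The target of the ASO was lower on all its arrays. Lncpint, the probe set of Pint, stood at 8.60, 8.48 and 8.55 in Pint ASO, against 10.41 and 10.23 in control ASO (log2 change -1.78, SE 0.12, adjusted p = 2.94e-05). Control ASO itself was above control siRNA in Lncpint, by 0.71 (SE 0.12, adjusted p = 0.0137). With p53 siRNA Lncpint read 9.13, 9.02 and 9.06, against 9.43, 9.88 and 9.53 in control siRNA (-0.54, SE 0.11, adjusted p = 0.00673). Trp53 was not analysed here, so the p53 siRNA was not checked at its own target. Fibroblast markers had 11 of 11 genes over the filter, with a mean level of 12.70 to 12.73 in p53 siRNA against 12.39 to 12.42 in control siRNA, and 11.82 to 11.88 in Pint ASO against 12.30 in control ASO. Of these 11, 7 were called higher with p53 siRNA and 9 lower with Pint ASO, and their part in the results below was not tested. Lists for 7 other cell types had means between 5.18 and 8.10, but most of their markers also passed the filter. Among markers with a probe set, 4 of 4 endothelial, 4 of 4 neural, 4 of 5 epithelial and 6 of 7 muscle markers passed. So did 3 of 4 adipocyte, 3 of 5 macrophage and blood, and 1 of 4 germ cell markers. Adgre1, Ptprc, Epcam, Myh3, Adipoq, Dazl, Ddx4 and Sycp3 did not.

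With p53 siRNA few respiratory chain genes changed. Limma called 10 of 111 probe sets lower and 1 higher (adjusted p under 0.05, by the method of Benjamini and Hochberg across the 26038 tested), where 8.96% of all probe sets tested were called lower and 7.97% higher. The share of members called lower, 9.01%, was thus close to that of the array. The median log2 change of the members was -0.01, beside 0.01 over all probe sets tested, and 64 of 111 lay under 0, as did 48.5% of all. The groups did not overlap in 36 members (19 lower, 17 higher), and in 35.7% of all probe sets tested (18.6% lower). Of all probe sets tested 16.9% were called in either direction. The number called lower was 6 without control siRNA 3 and 6 without p53 siRNA 2, and 6 of the 11 calls were kept whichever array was left out, in Cox6b2, Ndufab1 (both probe sets), Ndufc2, Ndufaf3 and Cox7a2l (probe set 2).

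With Pint ASO the respiratory chain was lower across complexes I to V. Limma called 45 of 111 probe sets lower, from 41 genes, and 1 higher, where 10.7% of all probe sets tested were called lower and 8.49% higher (19.1% in either direction). The members' median was -0.19, or 87.9% of the control ASO level, beside 0.00 over all probe sets tested, and 97 of 111 members lay under 0, as did 49.3% of all. The groups did not overlap in 78 members, 75 of them lower, and in 40.4% of all probe sets tested (22.2% lower). Among brightly measured probe sets (mean log2 over 10, a restriction chosen after seeing the data), 35 of 70 members were called lower and 19.2% of all 6572 such probe sets.

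These changes are small and the ASO arm has 5 arrays, so single calls rested on single arrays. The number called lower with Pint ASO was 16 without control ASO 2 and 30 without either control ASO 1 or Pint ASO 1, and 11 when the ASO arrays were fitted without the siRNA arrays. Of the 46 probe sets called with Pint ASO, 12 kept the call whichever of the 11 arrays was left out: Ndufaf3, Ndufa3, Ndufs6, Ndufs3 (probe set 2), Ndufc1 and Cox6c (both probe sets each), Ndufa4, Cox6a1, Cox6b2 and Uqcrh. Under every alternative fit, replicate blocks included, 3 of the 46 kept it. At B over 3, the threshold of the study, 1 member was lower in each knockdown, Cox6b2 with p53 siRNA and Ndufaf3 with Pint ASO, and 0 were higher; 3.92% and 3.12% of all probe sets tested passed it in these knockdowns.

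The shift with Pint ASO was present on each array. Relative to the mean of control ASO, the median deviation of the 111 members was -0.20, -0.18 and -0.20 on the 3 Pint ASO arrays, against -0.01 and 0.01 on the control ASO arrays. With 2 control ASO arrays these last values mirror each other by construction and do not show the spread between control arrays. Relative to control siRNA, it was -0.07, 0.01 and 0.02 on the p53 siRNA arrays, against 0.02, -0.05 and 0.03 on the control siRNA arrays. On the Pint ASO arrays 94, 94 and 95 of 111 members lay below their control mean. The p53 siRNA arrays lay within or just beyond the range that the control siRNA arrays themselves spanned.

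**Figure D1:**
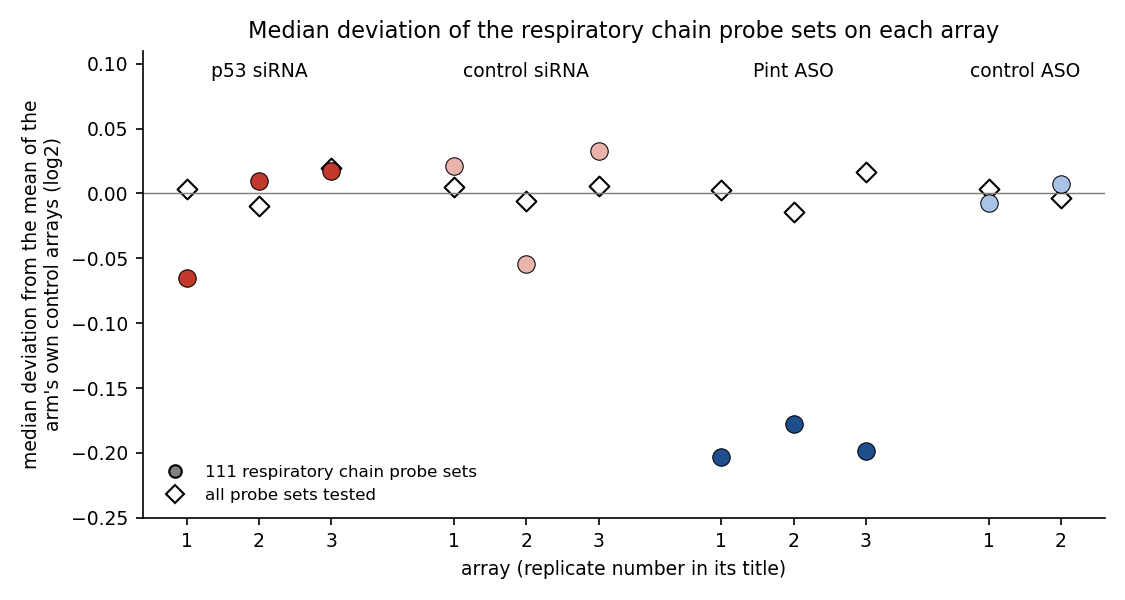
Median deviation of the 111 respiratory chain probe sets (circles) and of all probe sets tested (diamonds) from the mean of the control arrays of the same arm (vertical axis, log2), for each of the 11 arrays (horizontal axis). The circles of the 3 Pint ASO arrays lie between -0.20 and -0.18, apart from those of all other arrays (the 2 control ASO circles mirror each other by construction), while the diamonds lie within 0.02 of 0.

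**Figure D2:**
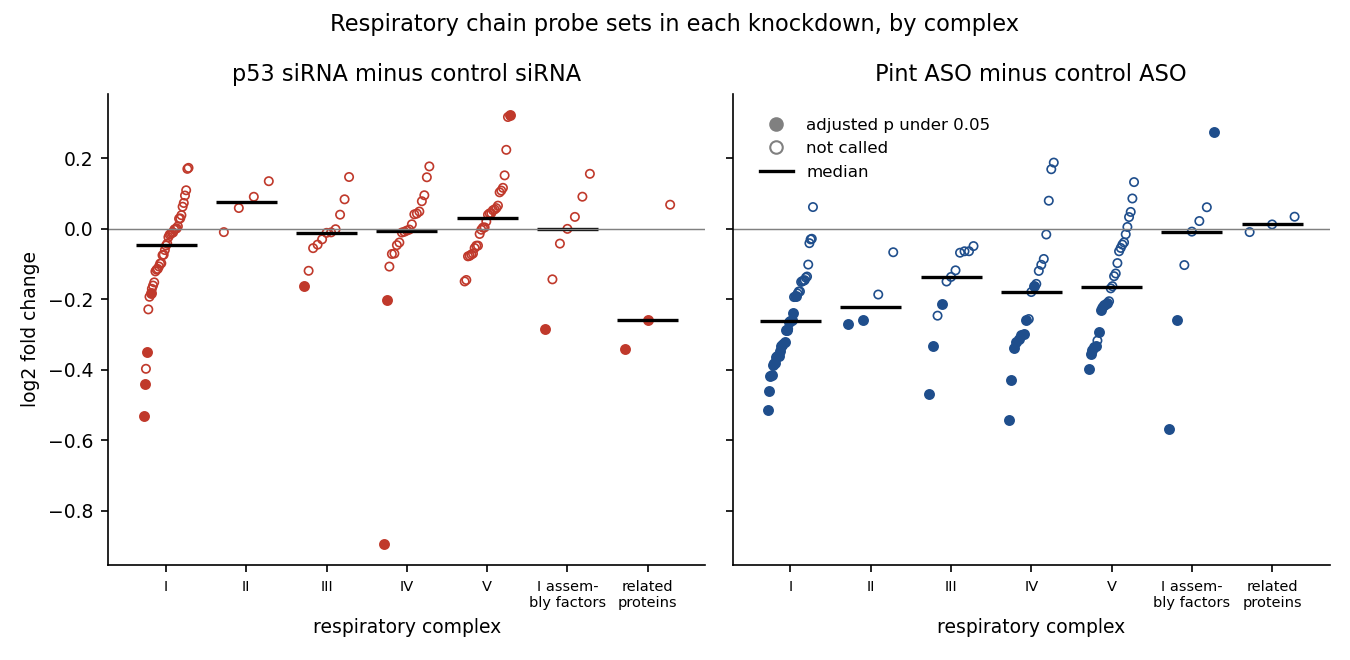
Log2 fold change of each tested probe set (points, filled where the adjusted p is under 0.05) by complex, for p53 siRNA minus control siRNA and for Pint ASO minus control ASO, with the median as a bar. With Pint ASO the medians of complexes I to V lie between -0.26 and -0.14, and with p53 siRNA between -0.05 and 0.07.

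The controls also differed in these genes. Between control ASO and control siRNA, which serve as references in the other comparisons, 7 members were called lower and 0 higher, where 1.73% of all probe sets tested were lower and 2.29% higher. At an unadjusted p under 0.05, 39 of 111 members passed, in either direction, and 17.8% of all probe sets tested. The members' median was -0.13 in control ASO relative to control siRNA, beside -0.01 over all probe sets tested, and 56 members had control ASO arrays wholly below the control siRNA arrays (16.6% of all probe sets tested). Groups did not overlap in 61 members and in 32.6% of all probe sets tested. The 7 were Ndufa4, Cox4i1, Cox6b2, Atp5mpl, Uqcr11 (probe set 1) and both probe sets of Cox7a2l. The first 4 of these were also among those called lower with Pint ASO against control ASO, as were 40.5% of all 111 members.

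The proximal promoters of member genes held more of the letters read by the 3 factors named above than promoters in general. Promoter windows of 300 bases, from 250 before to 50 after the start, were found in the RefSeq promoter table (GRCm38.p6) for 73 of 89 member genes and 27025 genes in all. On either strand, and with a site that reads on both strands counted once and the first window listed for a gene used, the NRF1 letters, GCGC, any base and TGCGC, were in 17 of 73 member windows (23.3%) and in 4.78% of all windows. CCGGAAG (ETS) was in 17 of 73 (23.3%) and in 9.12% of all, AANATGGCG (YY1) in 8 of 73 and in 2.51% of all, and the p53 half-site consensus in 4 of 73 (5.48%) and in 8.37% of all. Base composition was not matched, and a match is not evidence of binding.

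Among member genes with a window, NRF1 letters were in 9 of 33 called lower with Pint ASO and in 7 of 39 not called, ETS letters in 11 of 33 and 6 of 39, and YY1 letters in 4 of 33 and 4 of 39. The 39 include Cox7b2, which was not tested and holds none of these letters. The windows below are shown because they carry these letters in genes that were called lower with Pint ASO. They give, for each complex, the gene of the largest fall that holds NRF1 letters, and then, among the remaining genes, the largest fall with ETS and with YY1 letters. Each runs 5′ to 3′ on the strand of the gene, with up to 40 bases on either side of the outermost match, and capitals mark the matched letters.
Ndufs6, complex I, NRF1, chr13:73328449-73328538, minus strand: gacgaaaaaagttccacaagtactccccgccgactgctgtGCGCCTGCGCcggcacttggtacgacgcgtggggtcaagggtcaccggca
Sdha, complex II, NRF1, chr13:74350201-74350378, minus strand: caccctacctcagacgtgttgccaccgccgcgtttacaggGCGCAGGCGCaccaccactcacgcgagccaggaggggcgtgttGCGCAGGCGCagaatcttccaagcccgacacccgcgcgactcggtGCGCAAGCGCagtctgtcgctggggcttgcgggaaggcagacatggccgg
Uqcrc1, complex III, NRF1, chr9:108936613-108936697, plus strand: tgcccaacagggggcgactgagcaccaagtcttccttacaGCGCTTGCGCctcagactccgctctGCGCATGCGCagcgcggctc
Cox6a1, complex IV, NRF1, chr5:115349026-115349160, minus strand: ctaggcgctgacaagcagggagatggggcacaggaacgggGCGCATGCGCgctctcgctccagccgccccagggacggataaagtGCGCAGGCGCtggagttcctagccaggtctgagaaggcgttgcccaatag
Atp5h, complex V, NRF1, chr11:115420011-115420100, minus strand: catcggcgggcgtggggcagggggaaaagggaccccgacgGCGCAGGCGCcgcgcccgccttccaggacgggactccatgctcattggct
Ndufb6, complex I, ETS, chr4:40279607-40279671, minus strand: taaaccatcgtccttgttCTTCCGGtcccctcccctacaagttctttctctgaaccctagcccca
Ndufc1, complex I, YY1, chr3:51408906-51408973, minus strand: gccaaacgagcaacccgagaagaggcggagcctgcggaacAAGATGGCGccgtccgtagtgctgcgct

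Sdha carries 3 NRF1 matches in its window, Uqcrc1 and Cox6a1 carry 2 each, and Ndufs6 and Atp5h carry 1 each. The ETS match of Ndufb6 lies on the strand opposite to the gene and begins at position -232 from the start, and the YY1 match of Ndufc1 begins 22 bases after it. Ndufs6 also holds YY1 letters, and Uqcrh, like Ndufb6, holds ETS letters alone of the 3 kinds. The windows of Cox6b2, Ndufab1, Ndufc2, Ndufaf3 and Ndufa4 hold none of the 3.

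Complex I, the NADH dehydrogenase and entry point of most electrons, had the most probe sets and the largest number of calls with Pint ASO. There 20 of 39 tested probe sets were lower (51.3%, beside 10.7% of all probe sets tested) and 0 higher, with a median of -0.26. With p53 siRNA 4 of 39 were lower (10.3%, close to the 8.96% of all) and 0 higher, with a median of -0.05. Of the conserved core subunits of nuclear origin 6 were measured, with 7 probe sets. The core had 2 of 7 probe sets lower with Pint ASO (median -0.15) and the accessory subunits 18 of 32 (median -0.29). With p53 siRNA the 4 calls were in accessory subunits, which hold most of the probe sets. That is 4 of 32 (12.5%, beside 8.96% of all), with 0 of 7 in the core.

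In the core, Ndufs3 and Ndufs8 were called with Pint ASO. Ndufs3, a matrix-arm subunit close to the quinone site, averaged 10.99 ± 0.01 (SD, n = 3) in Pint ASO and 11.25 ± 0.06 (SD, n = 2) in control ASO on its probe set 2, with no overlap (-0.26, SE 0.05, adjusted p = 0.00581). Its probe set 1 gave -0.15 (adjusted p = 0.283), so the probe sets of Ndufs3 gave different calls with the same sign. Ndufs8, which carries iron-sulphur clusters, read 10.83, 10.78 and 10.95 in Pint ASO, against 11.06 and 11.22 in control ASO (-0.29, SE 0.06, adjusted p = 0.0133), and lost the call without control ASO 2 (adjusted p = 0.0990). Ndufv1, which binds NADH, changed by -0.15 (adjusted p = 0.0593), and Ndufv2, Ndufs1 and Ndufs7, the other electron carriers of this arm, by -0.15, -0.04 and -0.03 (adjusted p of 0.310 to 0.816). With p53 siRNA the core changes ran from -0.17 (Ndufs1) to 0.07 (Ndufs8), with no call.

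Accessory subunits of complex I do not carry electrons, but many of them are needed for its assembly or stability. Ndufs6, a zinc-binding subunit, read 9.19, 9.43 and 9.23 in Pint ASO, against 9.76 and 9.73 in control ASO (-0.46, SE 0.07, adjusted p = 0.00240). With p53 siRNA it read 10.00, 10.00 and 9.98, against 9.88, 9.74 and 9.86 in control siRNA (0.17, SE 0.07, adjusted p = 0.124). The Pint ASO arrays lay wholly below and the p53 siRNA arrays wholly above their controls.

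Ndufa3, a small membrane-anchored subunit, read 10.68, 10.74 and 10.70 in Pint ASO, against 11.03 and 11.07 in control ASO (-0.35, SE 0.05, adjusted p = 0.000988). Ndufc1, another small membrane subunit, fell by the same measure on both of its probe sets (-0.38 and -0.39, adjusted p = 0.00401 and 0.00604). Both genes kept the call on every omission of an array, and their groups did not overlap.

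The largest fall of an accessory subunit with Pint ASO depended on single arrays. Ndufb6, in the membrane arm, read 12.00, 12.23 and 11.63 in Pint ASO, against 12.58 and 12.35 in control ASO (-0.51, SE 0.15, adjusted p = 0.0416). Pint ASO 3 was the lowest of the arrays by a wide margin, and the call was lost on 10 of 11 omissions (adjusted p up to 0.236). Ndufa6, a partner of the acyl carrier protein, changed by -0.42 (SE 0.10, adjusted p = 0.0196) and Ndufs5 by -0.41 (SE 0.10, adjusted p = 0.0167), and both lost the call without control ASO 1 and without control ASO 2 (adjusted p up to 0.109 and 0.0822). Ndufb11, on both probe sets, and Ndufv3 lay between -0.33 and -0.36 and lost the call without control ASO 2 (adjusted p of 0.0501 to 0.101).

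Ndufab1, the mitochondrial acyl carrier protein that also serves in fatty acid synthesis, fell with p53 siRNA. Its probe set 2 read 9.98, 10.13 and 10.15 in p53 siRNA, against 10.55, 10.51 and 10.52 in control siRNA (-0.44, SE 0.06, adjusted p = 0.000702). Its probe set 1 read 9.60, 9.47 and 9.28 in p53 siRNA, against 9.92, 9.98 and 10.04 in control siRNA (-0.53, SE 0.10, adjusted p = 0.00646). On both probe sets the groups did not overlap. With Pint ASO the probe sets differed in sign, 0.06 and -0.18, and neither was called (adjusted p = 0.782 and 0.0963).

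Ndufc2 and Ndufb7 were called lower in both knockdowns. Ndufc2, a membrane-arm subunit, read 12.63, 12.76 and 12.74 in p53 siRNA, against 13.06, 13.03 and 13.09 in control siRNA (-0.35, SE 0.06, adjusted p = 0.00288). In Pint ASO it read 12.80, 12.74 and 12.64, against 13.05 and 12.93 in control ASO (-0.26, SE 0.07, adjusted p = 0.0217), a call lost without Pint ASO 3 and without control ASO 1 (adjusted p up to 0.150). Ndufb7, which lies on the intermembrane side, changed by -0.18 with p53 siRNA and by -0.19 with Pint ASO (adjusted p = 0.0252 and 0.0304), and lost these calls on 5 and 4 of 11 omissions (adjusted p up to 0.0985 and 0.158).

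Complex I assembly factors, which help to build the complex and then leave it, had a median of -0.01 with Pint ASO over 7 probe sets, 2 of them lower and 1 higher (10.7% and 8.49% of all probe sets tested). That median was -0.19 without control ASO 2 and 0.04 without Pint ASO 3, and its difference from the complexes was not tested. Ndufaf3, an early assembly factor, read 9.68, 9.69 and 9.63 in Pint ASO, against 10.27 and 10.20 in control ASO (-0.57, SE 0.06, adjusted p = 0.000253). This was the largest fall of all members with Pint ASO and left 67.5% of the control level. In p53 siRNA it read 9.88, 9.85 and 9.97, against 10.24, 10.10 and 10.22 in control siRNA (-0.29, SE 0.05, adjusted p = 0.00515).

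Ndufaf3 was thus lower on every knockdown array than on any control array of its arm, and kept both calls on every omission. Ndufaf7, a methyltransferase that acts on a core subunit, changed by -0.26 with Pint ASO (adjusted p = 0.0189), a call lost without Pint ASO 3, control ASO 1 or control ASO 2 (adjusted p up to 0.0827). Ndufaf4 was the only member called higher with Pint ASO, at 8.53, 8.43 and 8.41, against 8.24 and 8.13 in control ASO (0.27, SE 0.07, adjusted p = 0.0199). That call was lost without Pint ASO 1 and without control ASO 2 (adjusted p up to 0.125). The median of this group was -0.19 with Pint ASO when control ASO 2 was left out.

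Complex II, succinate dehydrogenase, is the only complex encoded wholly in the nucleus and also an enzyme of the citric acid cycle. With Pint ASO 2 of 4 subunits were lower (median -0.22), as were 10.7% of all probe sets tested. With p53 siRNA 0 of 4 were called in either direction (median 0.07), beside 16.9% of all. Limma gave 0 of these 4 an unadjusted p under 0.05 with p53 siRNA, a threshold that 28.4% of all probe sets tested passed. Sdhc, a membrane anchor with part of the quinone site, read 10.90, 10.95 and 11.05 in Pint ASO, against 11.20 and 11.27 in control ASO (-0.27, SE 0.05, adjusted p = 0.00691), and missed the threshold without control ASO 2 (adjusted p = 0.0545). Sdha, the flavoprotein that oxidises succinate, changed by -0.26 (SE 0.07, adjusted p = 0.0363) and lost the call on 9 of 11 omissions (adjusted p up to 0.238). Sdhb, the iron-sulphur subunit, and Sdhd, the other anchor, changed by -0.19 and -0.07 (adjusted p = 0.0573 and 0.741).

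Complex III, the cytochrome bc1 complex, had the smallest median of the complexes with Pint ASO, -0.14, with 3 of 11 probe sets lower and all 11 under 0. Of all probe sets tested 10.7% were called lower and 49.3% lay under 0. With p53 siRNA 1 of 11 was lower (9.09%, beside 8.96% of all), with a median of -0.01. Uqcrh, the hinge protein between cytochrome c1 and cytochrome c, read 10.33, 10.37 and 10.41 in Pint ASO, against 10.79 and 10.89 in control ASO (-0.47, SE 0.07, adjusted p = 0.00189). In p53 siRNA it read 11.01, 11.11 and 11.13, against 11.11, 11.04 and 11.26 in control siRNA (-0.05, adjusted p = 0.637). The ASO groups did not overlap and the siRNA groups did.

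Uqcrc1, a core protein facing the matrix, was called lower in both knockdowns with small changes. It read 11.67, 11.67 and 11.70 in p53 siRNA, against 11.83, 11.82 and 11.88 in control siRNA (-0.16, SE 0.05, adjusted p = 0.0380), and 11.63, 11.66 and 11.76 in Pint ASO, against 11.89 and 11.90 in control ASO (-0.21, SE 0.05, adjusted p = 0.0168). The p53 siRNA call was lost on 6 and the Pint ASO call on 3 of 11 omissions (adjusted p up to 0.130 and 0.0778). Uqcrb had 1 of 3 probe sets called with Pint ASO, the 3 giving -0.15 to -0.33. That call was lost without Pint ASO 2, Pint ASO 3, control ASO 1 or control ASO 2 (adjusted p up to 0.193).

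Complex IV, cytochrome c oxidase, has subunits that come as a ubiquitous and a tissue-restricted isoform, and the isoforms are described apart. With Pint ASO 9 of 19 probe sets were lower (median -0.18), beside 10.7% of all probe sets tested. These were 8 of the 13 of the ubiquitous subunits (median -0.26) and 1 of the 6 of the tissue isoforms (median 0.03). All 13 of the ubiquitous subunits lay under 0 and had groups that did not overlap, as did 22.2% of all probe sets tested in that direction. In 10 of these 13 the control ASO arrays already lay wholly below the control siRNA arrays (16.6% of all). With p53 siRNA 2 of 19 were lower (10.5%, beside 8.96% of all probe sets tested, median -0.00), 1 in each class.

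The largest change of any member was in a tissue isoform. Cox6b2, the testis isoform of subunit 6b, read 8.28, 8.16 and 8.20 in p53 siRNA, against 9.15, 9.06 and 9.12 in control siRNA (-0.89, SE 0.05, adjusted p = 6.86e-06), or 53.9% of the control level. In Pint ASO it read 8.37, 8.27 and 8.39, against 8.73 and 8.82 in control ASO (-0.43, SE 0.06, adjusted p = 0.00119). Every knockdown array was below every control array of either arm, and control ASO was itself below control siRNA (-0.34, adjusted p = 0.0177). Both knockdown calls were kept on every omission. Of 4 germ cell markers, Dazl, Ddx4 and Sycp3 were not over the filter in these cells, and Prm1 was.

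Cox6b1, the ubiquitous partner of Cox6b2, changed by -0.07 with p53 siRNA and -0.18 with Pint ASO, with no call (adjusted p = 0.469 and 0.0769). The other tissue isoforms, Cox4i2, Cox6a2, Cox7a1, Cox8b and Cox8c, which serve lung, muscle or testis, lay between 0.04 and 0.18 with p53 siRNA and between -0.16 and 0.19 with Pint ASO, and none was called in either knockdown by limma. Their log2 values ran from 6.33 to 8.65. At an unadjusted p under 0.05 Cox6b2 was the sole tissue isoform in either knockdown, where 28.4% of all probe sets tested passed with p53 siRNA and 30.5% with Pint ASO.

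Ndufa4, once counted with complex I and found with complex IV, had the largest fall of a subunit with Pint ASO. It read 9.87, 10.08 and 9.79 in Pint ASO, against 10.49 and 10.42 in control ASO (-0.54, SE 0.08, adjusted p = 0.00176), or 68.7% of the control level. In p53 siRNA it read 10.80, 10.90 and 10.86, against 10.90, 10.78 and 10.84 in control siRNA (0.01, adjusted p = 0.932). The siRNA groups overlapped, the ASO groups did not, and control ASO was below control siRNA (-0.39, adjusted p = 0.0336). Ndufa4l2, its hypoxia-inducible relative, changed by 0.07 and 0.03 with no call.

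Cox6a1, a ubiquitous subunit, read 11.31, 11.33 and 11.33 in Pint ASO, against 11.65 and 11.67 in control ASO (-0.34, SE 0.05, adjusted p = 0.00227). Both probe sets of Cox6c, a small membrane subunit, fell by 0.30 and 0.31 with Pint ASO (adjusted p = 0.00260 and 0.00183). These probe sets kept the call on every omission, and their groups did not overlap.

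Cox4i1, the ubiquitous isoform of subunit 4, was called lower in both knockdowns. It read 11.25, 11.28 and 11.32 in p53 siRNA, against 11.49, 11.46 and 11.50 in control siRNA (-0.20, SE 0.06, adjusted p = 0.0431), a call lost on 7 of 11 omissions (adjusted p up to 0.128). It read 10.79, 11.01 and 10.91 in Pint ASO, against 11.16 and 11.25 in control ASO (-0.30, SE 0.06, adjusted p = 0.0107), lost without control ASO 2 (adjusted p = 0.0753). Control ASO was below control siRNA here too (-0.28, adjusted p = 0.0478). Cox7a2, Cox5b (probe set 1) and Cox8a completed the Pint ASO calls with -0.32, -0.26 and -0.16, each lost on 1 to 4 omissions (adjusted p up to 0.155).

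**Figure D3:**
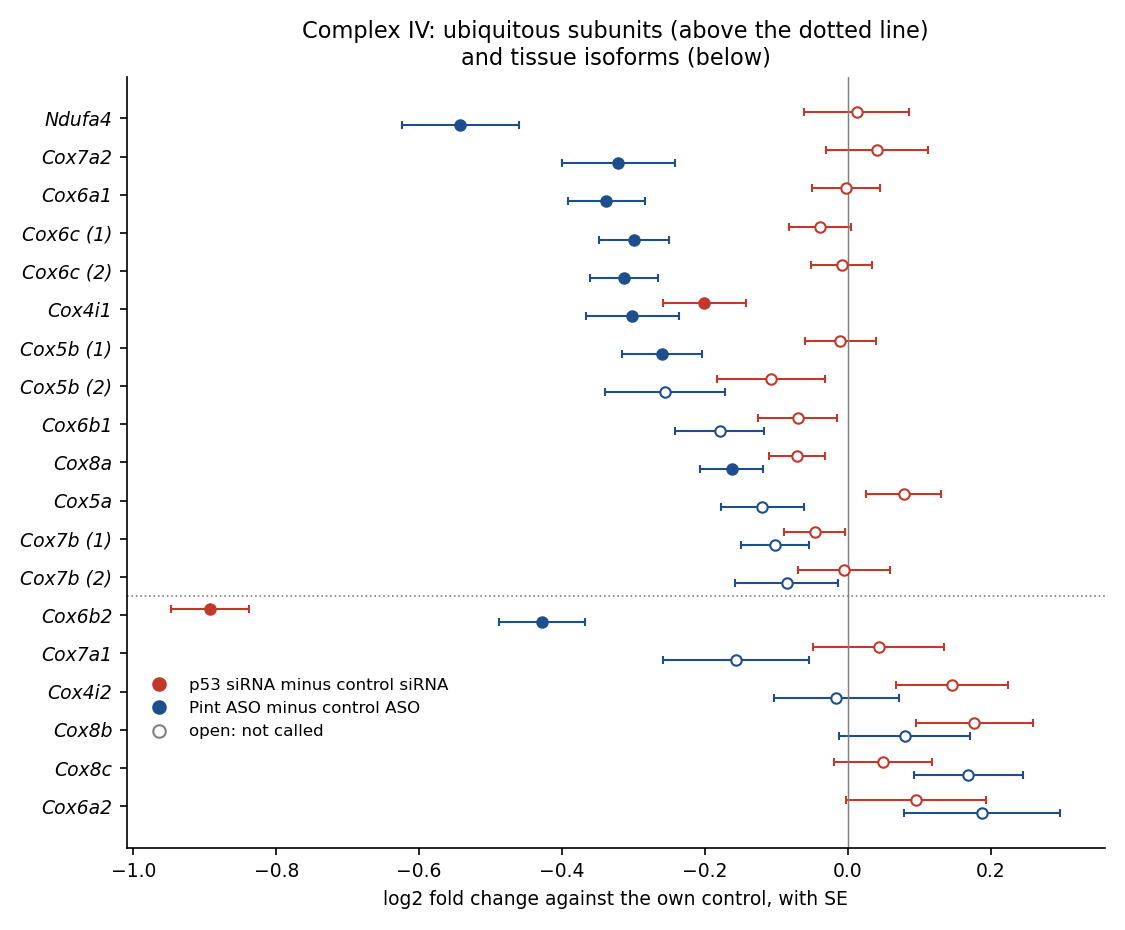
Log2 fold change with SE (horizontal axis) of each tested complex IV probe set, for p53 siRNA minus control siRNA and Pint ASO minus control ASO, filled where the adjusted p is under 0.05. The 13 probe sets of ubiquitous subunits all lie under 0 with Pint ASO, while Cox6b2 stands apart from the other tissue isoforms at -0.89 and -0.43.

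Cox7a2l, counted here as a related protein and not as a subunit, behaved unlike the ubiquitous subunit Cox7a2. Its probe set 2 read 7.90, 7.78 and 7.94 in p53 siRNA, against 8.26, 8.15 and 8.24 in control siRNA (-0.34, SE 0.06, adjusted p = 0.00463). Its probe set 1 gave -0.26 (adjusted p = 0.0153), lost without control siRNA 3 and without p53 siRNA 2 (adjusted p up to 0.0558). With Pint ASO the changes were 0.01 and -0.01 (adjusted p = 0.929 and 0.952), but control ASO was already 0.29 and 0.30 below control siRNA (adjusted p = 0.0429 and 0.0473).

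Complex V, the ATP synthase, was called lower with Pint ASO in 9 of 28 probe sets (median -0.17), and higher with p53 siRNA in 1 of 28 (median 0.03), with 0 lower. The shares over all probe sets tested were 10.7% lower with Pint ASO, and 7.97% higher and 8.96% lower with p53 siRNA. At an unadjusted p under 0.05, 4 of the 28 passed with p53 siRNA in either direction, where 28.4% of all probe sets tested did. By part of the enzyme, with Pint ASO the catalytic head and central stalk had 2 of 5 lower (median -0.21), the peripheral stalk 2 of 6 (median -0.22), the membrane subunits 4 of 11 (median -0.21) and the c-ring 1 of 6 (median -0.05).

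Atp5o, which ties the head to the peripheral stalk, read 10.63, 10.81 and 10.69 in Pint ASO, against 11.12 and 11.02 in control ASO (-0.36, SE 0.09, adjusted p = 0.0202). In p53 siRNA it read 11.45, 11.51 and 11.41, against 11.27, 11.07 and 11.35 in control siRNA (0.22, SE 0.08, adjusted p = 0.0894). Groups did not overlap in either arm and the changes had opposite signs. The Pint ASO call was lost without Pint ASO 1, Pint ASO 3, control ASO 1 or control ASO 2 (adjusted p up to 0.129).

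Atp5h, subunit d of the peripheral stalk, had the largest fall of complex V with Pint ASO, -0.40 on probe set 2 (SE 0.10, adjusted p = 0.0217) and -0.32 on probe set 3 (adjusted p = 0.102). The call was lost without either control ASO array (adjusted p up to 0.104). Of the catalytic head, Atp5a1 changed by -0.21 and Atp5b by -0.04 (adjusted p = 0.0477 and 0.546), and Atp5a1 lost the call on 10 of 11 omissions (adjusted p up to 0.237). Atp5mpl, a small proteolipid subunit, read 9.56, 9.73 and 9.67 in Pint ASO, against 9.95 and 10.03 in control ASO (-0.33, SE 0.07, adjusted p = 0.00907). That call was lost without control ASO 2 (adjusted p = 0.0662), and control ASO was 0.46 below control siRNA (adjusted p = 0.00812).

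The c-ring proteolipid is encoded by Atp5g1, Atp5g2 and Atp5g3, which give the same mature protein. Atp5g1 was the only member called higher with p53 siRNA, at 8.02, 8.08 and 8.17, against 7.60, 7.74 and 7.96 in control siRNA on its probe set 1 (0.32, SE 0.08, adjusted p = 0.0267). The call was lost without control siRNA 1, control siRNA 2, p53 siRNA 2 or p53 siRNA 3 (adjusted p up to 0.0952), and probe set 2 gave 0.15 (adjusted p = 0.173). Atp5g2 had 1 of 3 probe sets lower with Pint ASO, and the 3 ran from -0.22 to 0.13. Atp5g3 changed by 0.05 with p53 siRNA and by -0.13 with Pint ASO (adjusted p = 0.482 and 0.0985).

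**Figure D4:**
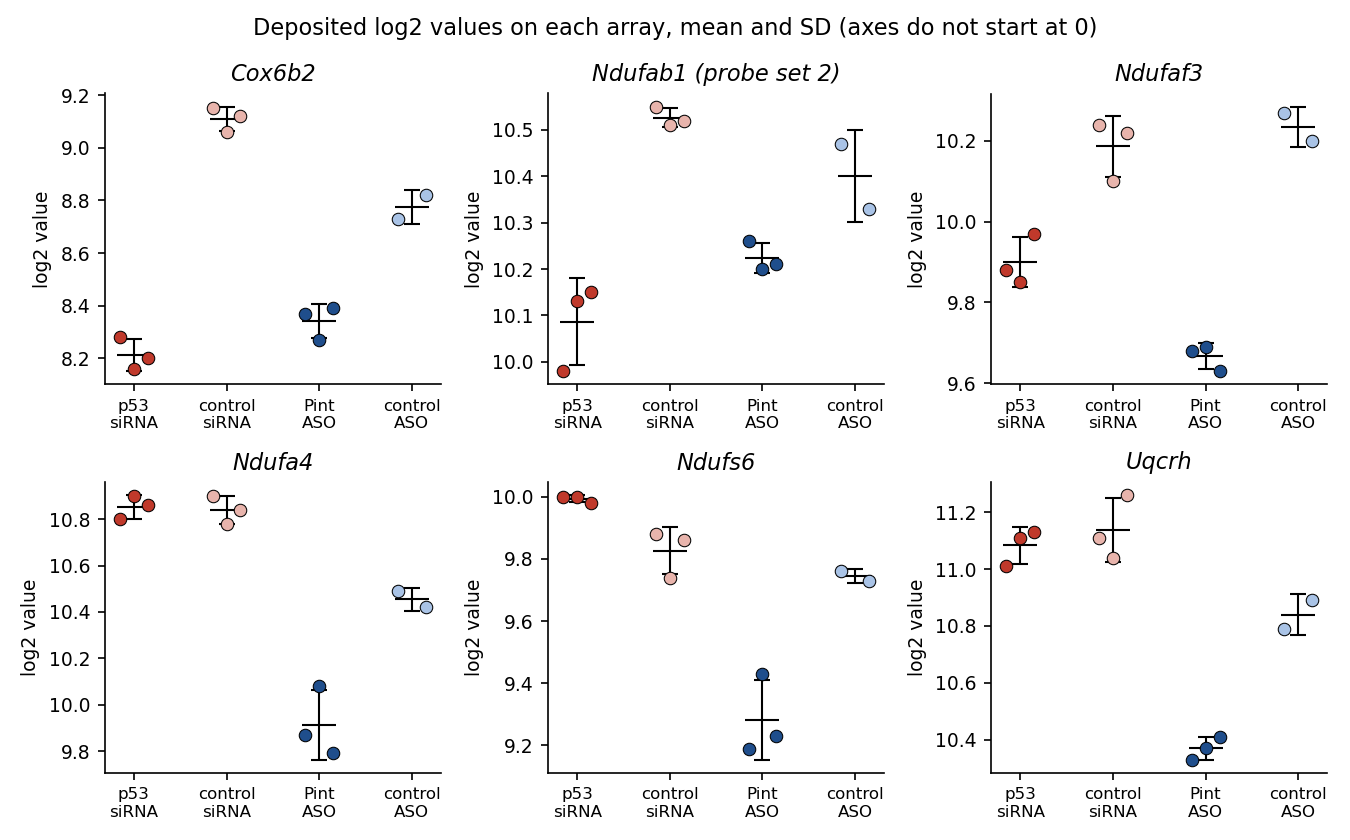
Deposited log2 values (vertical axes, which do not start at 0) of 6 members on each array, with the group mean and SD (n = 3, and 2 for control ASO). Cox6b2 and Ndufaf3 are lower in both knockdowns than in their controls, Ndufab1 (probe set 2) is lower with p53 siRNA than with control siRNA, and Ndufa4, Ndufs6 and Uqcrh are lowest on the 3 Pint ASO arrays.

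The probe sets of a gene did not always give the same answer. Of the 17 genes with more than 1 probe set, Ndufb11, Ndufc1 and Cox6c were lower with Pint ASO on both, and Ndufab1 and Cox7a2l were lower with p53 siRNA on both. Atp5l had 5 probe sets between -0.23 and 0.09 with Pint ASO, 1 of them called, and Atp5md had 3 between -0.35 and -0.04, 2 of them called. Ndufa11, Uqcr11, Cox7b and Atp5pb had no call on either probe set in these knockdowns. Probe sets shared with a pseudogene or a near copy, as for Cox7c and Ndufb4, lay outside the rule, and short subunit genes of this kind can share signal with copies elsewhere.

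Of the members, 6 were called in both knockdowns, all lower: Cox6b2, Ndufaf3, Ndufc2, Ndufb7, Cox4i1 and Uqcrc1. They make up 60% of the 10 members called lower with p53 siRNA and 13.3% of the 45 called lower with Pint ASO. Of all probe sets tested 562 were called lower in both, which is 24.1% of those called lower with p53 siRNA and 20.3% of those called lower with Pint ASO.

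The effects themselves were compared by the Pint effect minus the p53 effect in the same fit, which uses all 4 groups. This difference was called in 29 of 111 members, 26 with a more negative Pint effect and 3 with a more negative p53 effect, where 18.5% of all probe sets tested were called, 9.4% and 9.15% in these directions. The members' median difference was -0.19. The largest differences were in Ndufs6 (-0.63, adjusted p = 0.00203), Atp5o (-0.58, adjusted p = 0.00790), Ndufa4 (-0.56, adjusted p = 0.00679), Ndufv3 (-0.54, adjusted p = 0.00631) and Ndufc1 (probe set 1, -0.48, adjusted p = 0.00551), and these 5 kept the call on every omission. In the other direction were Ndufab1 (probe set 1, 0.59, adjusted p = 0.0263), Cox6b2 (0.46, adjusted p = 0.00349) and Cox7a2l (probe set 2, 0.33, adjusted p = 0.0366), of which Ndufab1 lost the call on 6 and Cox7a2l on 8 of 11 omissions (adjusted p up to 0.105 and 0.142). With replicate blocks, Atp5o and Ndufc1 (probe set 1) lost the call by either numbering, while Ndufs6 kept it by both. Ndufa4 and Cox6b2 lost it by title numbers, and Ndufv3 by description numbers. The count was 11 without control ASO 2, 15 without p53 siRNA 2 or 3, and 17 without Pint ASO 1 or control siRNA 2.

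Genes that work beside the chain showed a mixed picture. Of 8 probe sets of electron carriers and subunits that the name rule misses, 2 were lower with Pint ASO (median -0.11, with 10.7% of all probe sets tested lower). With p53 siRNA 0 were called (16.9% of all), and 0 had an unadjusted p under 0.05 (28.4% of all). The 2 lower with Pint ASO were Etfb (-0.42, adjusted p = 0.000841), part of the flavoprotein that hands over electrons from fatty acid oxidation, and Atpif1 (-0.27, adjusted p = 0.00667), the inhibitor of the ATP synthase. Of 39 probe sets of assembly factors outside the rule, 3 were lower (7.69%) and 1 higher with Pint ASO (median -0.13). With p53 siRNA 7 were lower (17.9%, beside 8.96% of all) and 3 higher (7.97% of all), with a median of -0.03. With p53 siRNA Sdhaf1, which helps to insert the iron-sulphur clusters of complex II, changed by -0.56 (adjusted p = 0.000206), Cox19 by -0.31, Cmc2 by 0.31 and Ttc19 by -0.30. With Pint ASO Cox14 changed by -0.29, Cox10 by 0.23, Cox17 by -0.22 and Uqcc2 by -0.21 (1 of its 2 probe sets).

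Of 19 probe sets of regulators of mitochondrial biogenesis, 6 were called higher, 0 lower and 13 not called with Pint ASO. Their median was 0.16, with 4 under 0. Among all probe sets tested 8.49% were called higher and 10.7% lower. Myc rose by 0.87 (adjusted p = 4.85e-05), the PGC-1-related coactivator Pprc1 by 0.52 (adjusted p = 0.000179), Nrf1 by 0.26 (adjusted p = 0.0357) and Yy1 by 0.23 (adjusted p = 0.0210). With p53 siRNA 2 were higher, Myc (0.30) and Pprc1 (0.22), and 3 lower, Esrra (-0.51), Gabpb1 (-0.39) and Tfb2m (-0.30, 1 of its 2 probe sets). The array shares there were 7.97% higher and 8.96% lower. The controls differed in Myc and Pprc1 as well, control ASO standing above control siRNA (0.52 and 0.34, adjusted p = 0.00390 and 0.00861). Nrf1 and Yy1 are the genes of 2 of the factors whose letters were counted in the promoters above.

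Ribosomal protein genes were also counted. Over all probe sets tested, 10.7% were called lower and 8.49% higher with Pint ASO, and 8.96% and 7.97% with p53 siRNA. Mitochondrial ribosomal proteins had 6 of 85 probe sets lower (7.06%) and 2 higher with Pint ASO (median -0.06), where both Mrpl23 probe sets fell, by 0.60 and 0.59. With p53 siRNA 2 were lower (2.35%) and 1 was higher (median -0.00). Cytosolic ribosomal proteins, a list of other short abundant mRNAs chosen after seeing the data, had 26 of 175 probe sets lower (14.9%) and 0 higher with Pint ASO (median -0.14). With Pint ASO 148 of these 175 lay under 0, beside 97 of 111 members, 52 of 85 mitochondrial ribosomal probe sets and 49.3% of all. Pint ASO arrays lay wholly below control ASO in 80 of the 175, 75 of the 111 members, 26 of the 85 and 22.2% of all. In control ASO relative to control siRNA that list had a median of -0.12 with 7 lower (4%), beside the members' -0.13 with 7 lower (6.31%). Of all probe sets tested 1.73% were lower there. What these lists share with the members, such as transcript length or level, was not tested as a part of the result.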

How the data were processed

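RNA of 11 samples was hybridised to Affymetrix whole-transcript mouse arrays, and the main and supplementary methods of the study name different array models. The deposited values are log2 intensities per probe set, which the authors computed with RMA, a method that corrects background, normalizes arrays and summarizes probes (version not stated). Probe sets were named with the platform annotation; 21640 of 34760 carry 1 symbol, and the 1321 with several were not named. The filter kept 26038 with log2 over 6 (linear 64) on 2 or more arrays of any group. A limma model (version 3.58.1, R 4.3.3; group means, untrended empirical Bayes) covered the 4 groups, and calls are adjusted p under 0.05 by Benjamini-Hochberg across those tested. Fold changes are log2 with SE; medians of complexes are descriptions. Simulated arrays had changes planted in 200 of 26038 probe sets. Of 100 planted at log2 0.5, the fit recovered 60 for p53 siRNA and 55 for Pint ASO. In the data 16.9% and 19.1% of probe sets were called, a larger share, so this recovery is not the sensitivity there. The small number of arrays sets the precision, and the p-values measure the spread between samples that may share a culture.

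Members and lists were chosen with earlier results of these data known. Genes were named by rule: the 10 highest and 10 lowest called per knockdown with groups apart, the largest change per complex, up to 5 per direction in the difference of the effects, isoform pairs, core subunits, genes with several probe sets, and up to 4 called per comparison list. Ndufaf7, Ndufb7, Atp5a1, Atp5b, Atp5mpl, Cox5b and Ndufb11 were also named for their place in a count, and single mentions outside the rule were chosen after their values were seen. Sco2 was not analysed here. Replicate numbers were not used as pairs. Alternatives covered the filter, centring, a further quantile normalization, trended and robust variance, each arm alone, B over 3, replicate blocks, 1 probe set per gene and the omission of each array.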

Additional observations from a re-analysis of the deposited data

Results flagged for a closer look

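The count of respiratory chain probe sets whose effects differ between the knockdowns, 29 of 111, was marked because the difference itself passed the test in limma; 18.5% of all probe sets tested did so, and the comparison shares its controls with both knockdown comparisons. The same test marked 5 named members with a more negative Pint effect. They were Ndufs6 with a difference of -0.63, Atp5o with -0.58, Ndufa4 with -0.56, Ndufv3 with -0.54 and Ndufc1 (probe set 1) with -0.48. It marked 3 with a more negative p53 effect, Ndufab1 (probe set 1) with 0.59, Cox6b2 with 0.46 and Cox7a2l (probe set 2) with 0.33. In Ndufa4 and Cox7a2l the control ASO arrays were themselves called below the control siRNA arrays (-0.39 and -0.30), and also in Cox6b2 (-0.34). The part of the control difference in these results was not tested.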

How the results depend on the processing

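No called probe set changed sign under the alternatives run. Medians near 0 did under some, namely those of all members, complex III and complex IV with p53 siRNA and of complex I assembly factors in both knockdowns. With each arm fitted alone, the counts were 0 higher with p53 siRNA, and 0 higher and 11 lower with Pint ASO; the difference between arms has no value there. At B over 3 they were 0 higher and 1 lower with p53 siRNA, 0 higher and 1 lower with Pint ASO, and 0 in the difference. With 1 probe set per gene 0 were higher with p53 siRNA, and with subunits alone, an alternative chosen after seeing the data, 0 were higher with Pint ASO. After quantile normalization was applied again, the Pint ASO median was -0.17 over all members and -0.11 in complex III.

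Same-numbered arrays were not taken as pairs: the siRNA deviations correlated at -0.284, -0.181 and -0.0371, and the ASO deviations at -0.0463 and -0.420 by titles and 0.420 and 0.375 by descriptions, which number the control ASO arrays differently. With a replicate block by title number, 6 were lower with p53 siRNA, 4 lower and 0 higher with Pint ASO, and 2 were called in the difference. With a replicate block by description number these were 6, 12, 0 and 6.

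Leaving out 1 array at a time, p53 siRNA gave 0 to 2 higher and 6 to 11 lower, Pint ASO 0 to 1 higher and 16 to 42 lower, and the difference 11 to 27. Pint ASO medians ran from -0.22 to -0.17 over all members, -0.19 to -0.13 in complex III, -0.25 to -0.15 in complex IV, -0.17 to -0.13 in complex V, and -0.19 to 0.0427 in complex I assembly factors. The p53 siRNA median of complex I ran from -0.115 to -0.0036.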
